A study of Mus musculus with 4 samples.

Results

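The genes described are 8 receptors for steroid hormones, vitamin D and thyroid hormone: Nr3c1, Nr3c2, Esr1, Esr2, Pgr, Vdr, Thra and Thrb. They were chosen by gene symbol, out of 18193 named genes on the array, and 20 probe sets carry 1 of these symbols alone. Gene expression was measured on Affymetrix MOE430 arrays in 4 samples of ureter from adult male mice (Theiler stage 28) of the FVB/N strain. All carried the SMGA/EGFP transgene, in which EGFP marks tissue that uses smooth muscle gamma actin (Actg2), and the ureter was dissected between kidney and bladder by that fluorescence. The RNA of each sample, unpooled, was amplified in 2 rounds and put on 1 array. There is no second genotype, sex, age or treatment, so no contrast between groups exists. The question is which receptors the ureter expressed and how far the samples, numbered 1 to 4 without order, differed. The labels do not say that the samples came from separate animals, so the p-values measure the spread between these samples, which may be technical.

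These receptors are transcription factors that bind both a hormone and DNA. The receptors for glucocorticoid (Nr3c1), mineralocorticoid (Nr3c2), oestrogen (Esr1, Esr2) and progesterone (Pgr) wait for hormone in complexes with chaperones and act mostly as homodimers. The receptors for vitamin D (Vdr) and thyroid hormone (Thra, Thrb) sit on DNA with a retinoid X receptor as partner. In the urinary tract, mineralocorticoid receptors are best known from the kidney tubule, where they raise sodium uptake through the epithelial sodium channel.

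Promoter windows of 6 of the 8 receptor genes, not of Nr3c1 or Thra, were searched in RefSeq sequence. Each window held the 250 bases before a transcription start and was searched on both strands. The GC box GGGCGG, bound by factors of the Sp family, was found 3 times in the window of Nr3c2, 3 times in that of Vdr and 3 times in the upstream window of Thrb. It was found 1 time in the window of Pgr and 0 times in those of Esr1, Esr2 and the second start of Thrb. Of all 32851 windows of the same length 32.7% hold it. The core site AGGTCA, which receptors for oestrogen, thyroid hormone and vitamin D share, stood in 1 receptor window, that of Thrb, and in 4607 of all windows. The windows of Nr3c2, Vdr and Thrb are shown because they hold the most GC boxes, and that of Sgk1 because it holds the palindrome that glucocorticoid and mineralocorticoid receptors bind, AGAACA and TGTTCT with 3 free bases between them. That palindrome occurs in 3 of all windows (0.00913%). Sgk1, a kinase gene that both receptors induce, was chosen after its values were seen. The sequences run 5′ to 3′ in GRCm38.p6, with the GC boxes and the core site in capitals for the receptors and the palindrome alone in capitals for Sgk1, whose window also holds 1 GC box in lower case. In the Thrb window 2 GC boxes overlap each other.
Nr3c2, chr8:76902080-76902329, + strand: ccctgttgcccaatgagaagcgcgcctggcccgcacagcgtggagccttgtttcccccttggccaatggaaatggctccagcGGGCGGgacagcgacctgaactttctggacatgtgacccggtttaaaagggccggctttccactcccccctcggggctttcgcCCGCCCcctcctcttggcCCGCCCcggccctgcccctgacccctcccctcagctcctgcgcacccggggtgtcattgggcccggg
Vdr, chr15:97908297-97908546, - strand: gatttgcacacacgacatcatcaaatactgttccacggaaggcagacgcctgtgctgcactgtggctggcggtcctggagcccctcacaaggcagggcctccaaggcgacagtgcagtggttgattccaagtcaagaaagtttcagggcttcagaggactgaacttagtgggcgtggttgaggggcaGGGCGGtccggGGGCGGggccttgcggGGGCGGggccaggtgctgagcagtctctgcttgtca
Thrb, chr14:17660710-17660959, + strand: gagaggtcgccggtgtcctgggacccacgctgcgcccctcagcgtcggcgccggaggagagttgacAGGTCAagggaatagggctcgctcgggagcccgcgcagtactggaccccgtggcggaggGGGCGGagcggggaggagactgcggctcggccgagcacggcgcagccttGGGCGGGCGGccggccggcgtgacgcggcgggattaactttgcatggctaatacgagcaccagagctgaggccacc
Sgk1, chr10:21993640-21993889, + strand: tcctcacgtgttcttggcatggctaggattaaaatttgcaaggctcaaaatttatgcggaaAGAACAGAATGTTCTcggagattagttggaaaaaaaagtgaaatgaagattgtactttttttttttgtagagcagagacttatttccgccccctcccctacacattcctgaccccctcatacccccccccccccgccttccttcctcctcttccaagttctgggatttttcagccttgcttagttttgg
The Nr3c2 window held 17 CpG and the Vdr window 11, more than in 76.5% and 64.4% of all windows. The Thrb window held 30, more than in 94.1%. A match is a string of letters in this window and was not tested as a binding site.

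In the adult ureter 5 of the 8 receptor genes were above background, namely Nr3c1, Nr3c2, Esr1, Vdr and Thra. Esr2, Pgr and Thrb were not, which does not show that their transcripts were absent. Esr2 and Thrb have 1 probe set each. Even Esr1 and Nr3c1, both above background, had probe sets that stayed under the threshold in every sample. Among all named genes 57.8% were above background, so the receptors' share of 62.5% lies near that of genes at large. With the strictest background tried the receptors' count was again 5, and the share of all named genes was 39.5%. Of the 20 receptor probe sets 8 were above background, against 40.9% of all probe sets. A probe set was above background where the mean of log2(intensity + 16) over the 4 samples exceeded the arrays' own thresholds in limma's one-sided test, with an adjusted p under 0.05. Each array's threshold, the 95th percentile over probe sets for smell and taste receptors, was 7.25, 6.99, 7.57 and 7.36 in replicates 1 to 4. Values below are on this log2 scale, given as mean ± SD with n = 4, and levels of different probe sets are not compared. The number of arrays limits their precision.

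**Figure D1:**
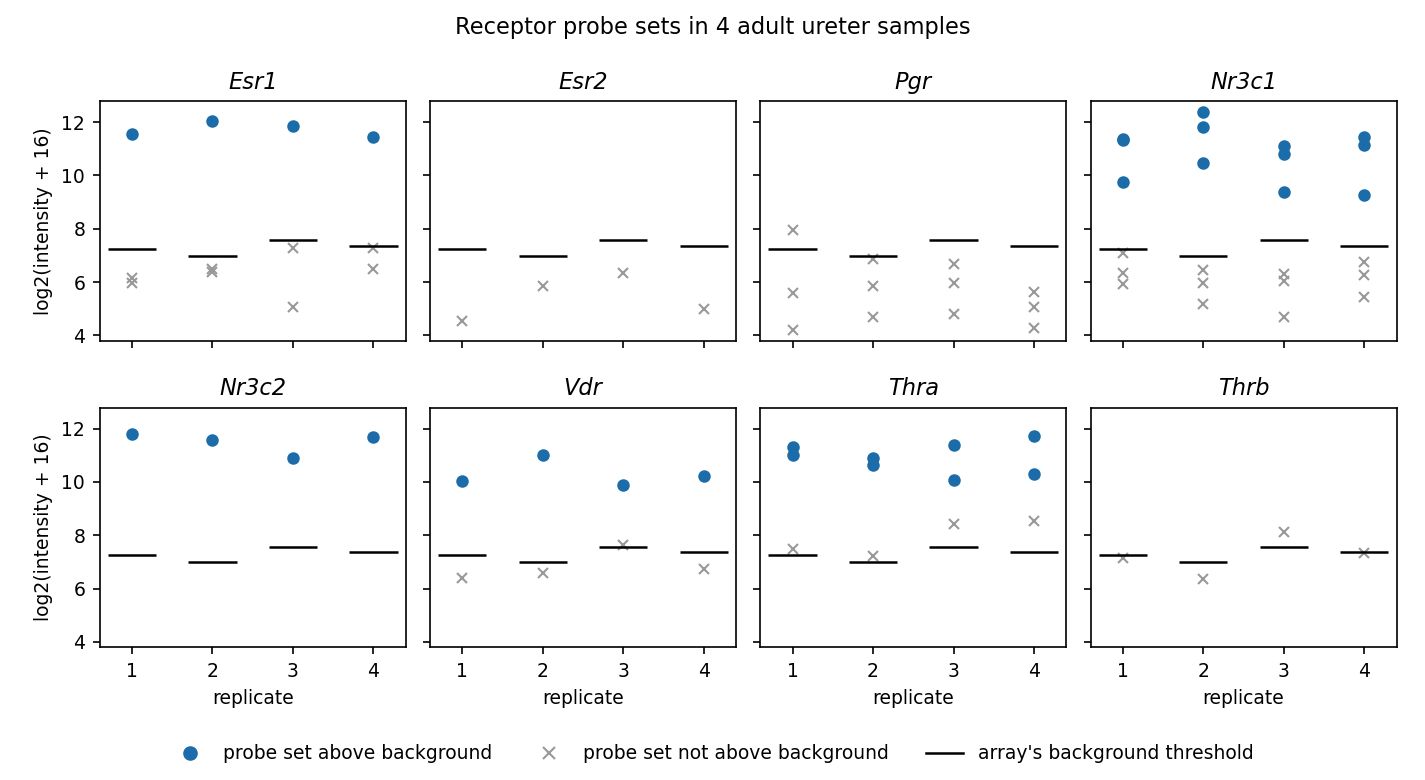
Level of every receptor probe set, as log2(intensity + 16), in each of the 4 samples, with the threshold of each array as a short line. In every sample the filled points of Esr1, Nr3c1, Nr3c2, Vdr and Thra lie above the line, while probe sets of Esr2, Pgr and Thrb lie below it or cross it in 1 sample.

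The labelled tissue was checked first against its markers. All 7 smooth muscle markers lay over the threshold in every sample, and Actg2 had a level of 11.91 ± 0.96. Of 8 urothelium markers 6 to 8 did so in each sample, with Upk1b, a uroplakin of the lining, at 15.01 ± 0.56. The urothelium markers not above background were Upk3a (4.55, 6.38, 14.91 and 7.03) and Krt20 (7.09, 6.31, 11.69 and 6.07). Both lay over the threshold in replicate 3 alone. Markers of other organs were high in some samples. Replicate 3 had all 6 skeletal muscle markers over the threshold, where replicate 1 had 0 and replicates 2 and 4 had 1 each. Replicates 1 and 3 had all 5 liver markers over it, and the other arrays had 1 each. Replicates 1 and 2 had all 5 markers of the male reproductive tract over it, replicate 3 had 2 and replicate 4 had 1. The signal ratio of the 3' to the 5' control probe sets of Actb, a sign of RNA length, was 8.23, 19.8, 5.27 and 4.43, and that of Gapdh was 34.4, 36.9, 31.6 and 18.8. Without any 1 of the replicates the count of receptor genes above background was 5.

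Nr3c1, the glucocorticoid receptor gene, was above background in 3 of its 6 probe sets. Probe set 1460303_at had 11.32, 12.37, 10.79 and 11.43 in replicates 1 to 4 (11.48 ± 0.65, limma adjusted p = 5.95e-06). Probe set 1421867_at had 11.35, 11.83, 11.09 and 11.13 (11.35 ± 0.34, adjusted p = 1.64e-06). Probe set 1457635_s_at had 9.74, 10.48, 9.37 and 9.27 (9.71 ± 0.55, adjusted p = 0.000172). All 3 were highest in replicate 2, by 1.18, 0.64 and 1.02 log2 units over the mean of the other 3 samples, which is 2.27, 1.56 and 2.03 times. The lowest sample was replicate 3 in the first and second and replicate 4 in the third. The other 3 probe sets, 1421866_at, 1431378_at and 1453860_s_at, had means from 5.71 to 6.34 and lay over the threshold in 0 samples.

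Nr3c2, the mineralocorticoid receptor gene, has 1 probe set, 1435991_at. It had 11.80, 11.59, 10.90 and 11.70 in replicates 1 to 4 (11.50 ± 0.41, limma adjusted p = 1.41e-06). Replicate 3 was lowest, 0.80 log2 units below the mean of the others, or 0.575 times it. Its deposited intensities were 3549, 3057, 1891 and 3309.

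Of the receptors for sex steroids Esr1 was above background, and Esr2 and Pgr were not. Esr1, the oestrogen receptor alpha gene, had 11.56, 12.04, 11.84 and 11.44 with probe set 1460591_at (11.72 ± 0.27, limma adjusted p = 4.63e-07). It was the steadiest of the 5 receptors, with 0.61 log2 units between the highest sample, replicate 2, and the lowest, replicate 4. The call rests on this probe set alone. The other Esr1 probe sets, 1435663_at and 1421244_at, had 6.16 to 7.28 and 5.07 to 6.49 and lay over the threshold in 0 samples.

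Esr2, the oestrogen receptor beta gene, had 4.53, 5.85, 6.35 and 4.99 with its 1 probe set, 1426103_a_at, and lay under the threshold in every sample. Pgr, the progesterone receptor gene and itself a known target of oestrogen, was not above background in any of its 3 probe sets. Probe set 1439527_at had 7.94 in replicate 1, over that array's threshold of 7.25, and 6.86, 6.69 and 5.08 in replicates 2 to 4. The others, 1421444_at and 1455772_at, had 5.75 ± 0.18 and 4.49 ± 0.31 and were under the threshold in every sample. The adjusted p was 1 for every probe set of Esr2 and Pgr.

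Vdr, the vitamin D receptor gene, was above background with probe set 1418176_at, which had 10.02, 11.03, 9.90 and 10.23 (10.30 ± 0.51, limma adjusted p = 3.02e-05). Replicate 2 was highest, 0.98 log2 units above the mean of the others, or 1.98 times it, and replicates 1, 3 and 4 spanned 9.90 to 10.23. The second probe set, 1418175_at, had 6.38, 6.57, 7.64 and 6.72 and reached the threshold in replicate 3 only. With the strictest background, the median plus 3 median absolute deviations, the adjusted p of Vdr was 0.0491, the closest of the 5 receptors to the limit.

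Of the thyroid hormone receptor genes Thra was above background and Thrb was not. Thra had 11.32, 10.89, 11.38 and 11.72 with probe set 1454675_at (11.33 ± 0.34, limma adjusted p = 4.49e-07) and 11.03, 10.62, 10.08 and 10.31 with probe set 1443952_at (10.51 ± 0.41, adjusted p = 9.52e-06). The probe sets ordered the samples differently. The first was highest in replicate 4 and lowest in replicate 2, and the second was highest in replicate 1 and lowest in replicate 3. Probe set 1426997_at had 7.48, 7.22, 8.42 and 8.55, which is over the threshold in all 4 samples but not past the test (7.92 ± 0.67, adjusted p = 0.101). In mouse the gene gives several transcripts, of which 1 encodes a form that does not bind hormone, and the annotation used here does not say which form each probe set reads. The annotated spans of Thra and Nr1d1, the gene of a clock repressor, overlap by 1075 bases, and Nr1d1 had 10.91, 10.30, 9.86 and 11.78. That overlap was counted without regard to strand, and whether a Thra probe set reads Nr1d1 was not tested. Thrb, with 1 probe set, 1422202_at, had 7.15, 6.37, 8.11 and 7.35 (7.24 ± 0.71, adjusted p = 1). It lay over the threshold in replicate 3 alone. That sample had all 6 skeletal muscle markers over the threshold. All 5 liver markers lay over it there and in replicate 1, with summed intensities of 11860 and 45590. Of the 3 fat markers Fabp4 was high in replicate 3 (14.93), Adipoq had 7.77, and Lep had 5.04, under the threshold. The part of these markers in the level of Thrb was not tested.

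**Figure D2:**
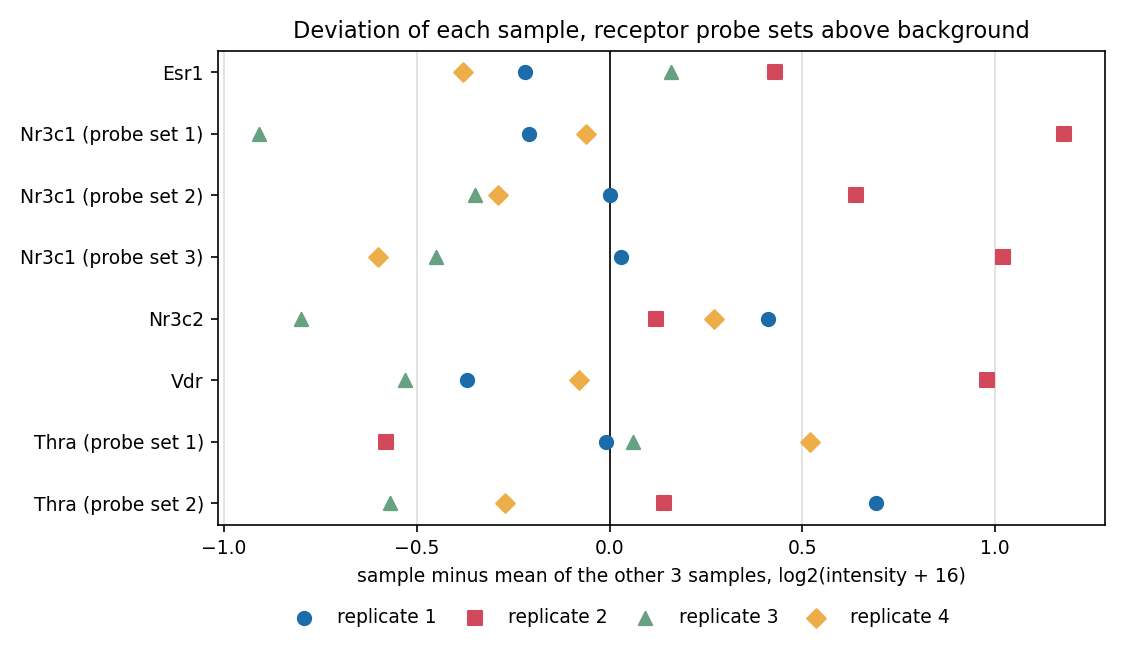
Difference between each sample and the mean of the other 3, in log2(intensity + 16), for the 8 receptor probe sets above background, with probe sets of a gene numbered from the highest mean. Replicate 2 lies to the right for Nr3c1 (0.64 to 1.18) and Vdr (0.98), replicate 3 to the left for Nr3c2 (-0.80), and the 2 probe sets of Thra differ in their order.

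No receptor passed the test for more spread between samples than probe sets of its level had. In the F test against limma's prior variance the smallest unadjusted p among the 8 receptor probe sets above background was 0.203, for Nr3c1, and the adjusted p was 0.996 for all of them. That test called 0 of 18414 probe sets (0%), and 1156 (6.28%) had an unadjusted p under 0.05, of which 0 were receptor probe sets. It did not call even Pbsn, a male reproductive tract marker (SD 3.16), or Ltf (SD 2.30), both above background. Not passing it therefore does not show that a receptor was steady. Ranked by SD, Esr1 varied more than 25.3% of the genes above background, Thra than 37.4%, Nr3c2 than 50.1%, Vdr than 65.5% and Nr3c1 than 78.9%. The median SD of the 5 receptors was 0.41, and that of all genes above background was 0.41. The median deviation of the 5 receptors was -0.21, 0.43, -0.53 and -0.06 in replicates 1 to 4, with 1, 4, 2 and 2 of them higher than the mean of the other samples. Over all genes above background it was between -0.05 and 0.05.

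Tissue markers also differed between the samples, and not all of them in the direction of the receptors. In replicate 2, where Nr3c1 and Vdr were highest, the smooth muscle markers had a median deviation of 1.02 with 7 of 7 higher, and their summed intensity was 67080, against 22750 to 47310 in the other samples. The endothelium markers had a median deviation of 1.11 there with 4 of 5 higher, the fibroblast markers 0.82 with 6 of 7 higher and the macrophage markers 0.52 with 5 of 5 higher. The male reproductive tract markers had 6.10 with 4 of 5 higher, and their summed intensity was 66160, against 44100 in replicate 3. The exception was Pbsn, with 9.42 in replicate 2 and 15.41 in replicate 3, where the other markers of that list lay below their replicate 2 levels. The Actb and Gapdh ratios were both highest in replicate 2, that of Gapdh by little over replicate 1. In replicate 3, where Nr3c2 was lowest, the fibroblast markers had a median deviation of -2.15 with 0 of 7 higher, and their summed intensity was 20270, against 79270 to 114200. Of the endothelium markers 0 of 5 were higher there, while the skeletal muscle markers had 7.28 with 6 of 6 higher and a summed intensity of 148900, against 257 to 428. Nr3c1 (10.79 with probe set 1460303_at) and Vdr (9.90) were also lowest in replicate 3. The smooth muscle markers there had a summed intensity of 47310, below only that of replicate 2, with 5 of 7 higher. The urothelium markers had a median deviation of 0.69 in replicate 3 and -0.28 in replicate 2. The part of these markers in the receptors' levels was not tested. In whole tissue, fewer cells of a type and less RNA per cell cannot be told apart.

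**Figure D3:**
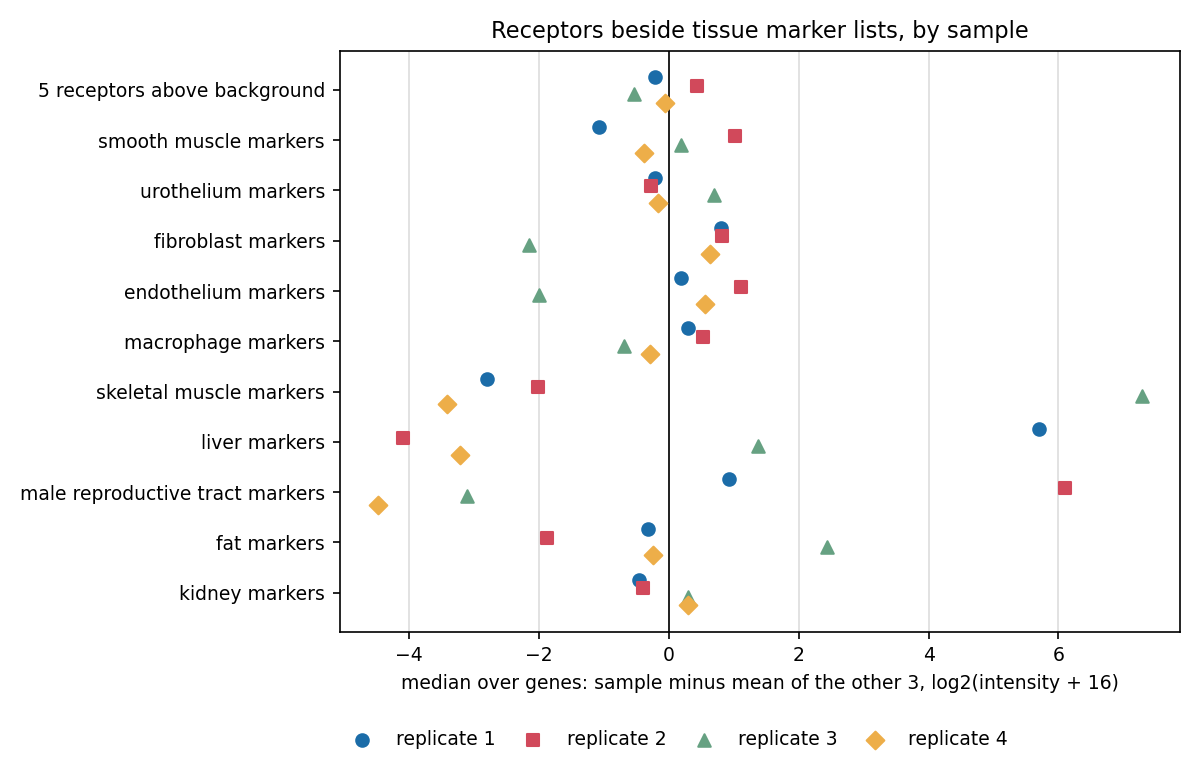
Median over genes of the difference between each sample and the mean of the other 3, in log2(intensity + 16), for the 5 receptors above background and 10 lists of tissue markers. The receptor medians span -0.53 to 0.43, while skeletal muscle markers reach 7.28 in replicate 3 and male reproductive tract markers 6.10 in replicate 2.

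The genes whose pattern over the 4 samples was most like each receptor were found by the root mean square difference of mean-centred levels. For Nr3c1 these were Cdca8 (0.0189) and Clca2 (0.0525), for Vdr Med14 (0.0511) and Zfp128 (0.0527), and for Nr3c2 Inava (0.0200) and Pkp3 (0.0233). For Esr1 they were Etf1 (0.0268) and Osgep (0.0308), and for Thra Tmc6 (0.0163) and Rdm1 (0.0208). Over 4 points other genes come close as well. Within a wider limit, a difference of 0.1, lay 99 genes for Esr1, or 0.941% of the others above background. There were 98 for Nr3c2 (0.932%), 85 for Thra (0.808%), 20 for Vdr (0.190%) and 7 for Nr3c1 (0.0665%).

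The partners and relatives of the receptors were above background in 6 of 9 measured cases. This count and the list counts that follow stand beside the 57.8% of all named genes above background. Rxra, a retinoid X receptor that pairs with Vdr and the thyroid hormone receptors, had 12.41, 12.55, 12.16 and 12.62, and Rxrb had 12.04, 11.45, 11.41 and 12.37. Rxrg, the other partner, had 6.61, 5.09, 8.81 and 6.08 and was not above background (limma adjusted p = 1). Of the oestrogen-related orphan receptors Esrra (10.88 ± 0.27) and Esrrg (9.19 ± 0.85) passed the test and Esrrb (6.58 ± 0.47) did not. Gper1, a membrane receptor for oestrogen, had 7.69 to 8.04, over the threshold in all 4 samples but not past the test (adjusted p = 0.0985). Pgrmc1 (15.26 ± 0.30) and Pgrmc2 (12.52 ± 0.31), membrane proteins named for progesterone binding, passed it.

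The chaperones that hold steroid receptors ready for hormone were above background in 11 of 11 cases. At the strictest background 10 of the 11 were. Without probe sets that can read several transcripts 9 of 10 measured were. Hsp90aa1, the inducible HSP90, had 15.17 ± 0.21. Fkbp4 and Fkbp5, co-chaperones that favour and restrain hormone binding by the glucocorticoid receptor, had 11.72 ± 0.29 and 13.95 ± 0.29. The largest SDs of the list were those of Cdc37 (0.43), a kinase co-chaperone, and Hspa4 (0.37).

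Coactivators were above background in 15 of 16 cases and corepressors in 7 of 9. At the strictest background 14 coactivators and 6 corepressors were. Without probe sets that can read several transcripts 11 of 13 and 6 of 8 measured were. The corepressor count was also 6 at the 99th percentile background and without replicate 1, 2 or 4. The p160 coactivators Ncoa1, Ncoa2 and Ncoa3, which hormone-bound receptors recruit, had 11.96 ± 0.16, 12.54 ± 0.29 and 12.24 ± 0.40. Prmt1, an arginine methyltransferase, had the largest SD of the coactivators that passed (8.99 ± 0.50). Ppargc1b, chosen for not passing, had 7.93 ± 1.15 (adjusted p = 0.183), highest in replicate 3. Among corepressors, Hdac3, the deacetylase of the NCoR complex, had 11.57 ± 0.40, Nrip1 had 14.21 ± 0.40 and Tbl1x had 13.72 to 14.31. Lcor, a corepressor that binds hormone-bound receptors, had 13.26 and 13.24 in replicates 1 and 3 and 11.80 and 11.91 in replicates 2 and 4. The corepressors that did not pass, Nr0b1 and Nr0b2, named after their values were seen, are orphan receptors and lay under the threshold in every sample. The median SD was 0.29 for the coactivators and 0.27 for the corepressors that passed.

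**Figure D4:**
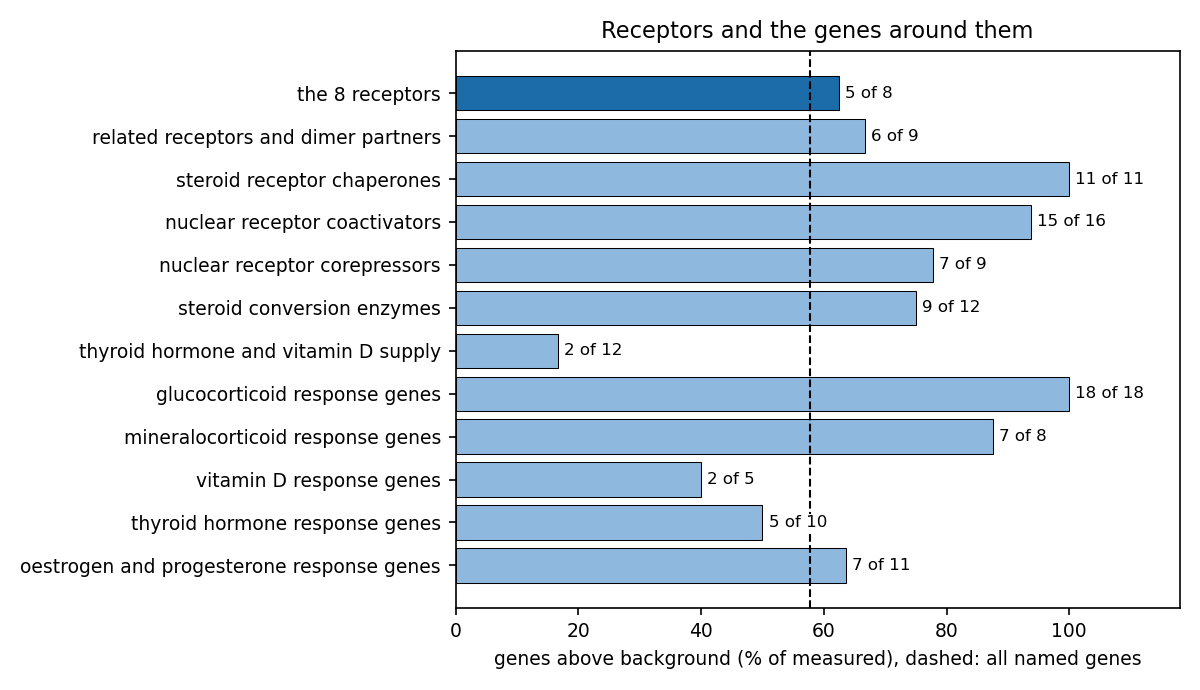
Percent of measured genes above background for the 8 receptors and each list of genes around them, with the counts beside the bars and the share of all named genes (57.8%) as a dashed line. Chaperones (11 of 11) and glucocorticoid response genes (18 of 18) fill their bars, and thyroid hormone and vitamin D supply (2 of 12) has the shortest.

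Enzymes that convert steroids were above background in 9 of 12 measured cases. Hsd11b1, which regenerates active glucocorticoid, had 9.35, 8.46, 9.09 and 9.06 and passed the test (limma adjusted p = 0.000381), as did H6pd, which supplies its cofactor (13.04 ± 0.14). Hsd11b2, which inactivates glucocorticoid and so shields the mineralocorticoid receptor in kidney, had 7.66, 6.90, 8.64 and 6.08 and did not pass (adjusted p = 0.939). It lay over the threshold in replicates 1 and 3. The largest SDs among genes that passed were those of Hsd17b7, which acts on sterols and oestrogen (11.03, 11.44, 12.78 and 9.88), and Srd5a3, of the steroid reductase family (11.83 ± 0.95).

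Genes that supply thyroid hormone or active vitamin D were above background in 2 of 12 cases, Dio2 and Slc7a5. Dio2, the deiodinase that makes active thyroid hormone inside cells, had 11.55, 12.89, 11.05 and 12.07 (11.89 ± 0.78, limma adjusted p = 5.34e-06). Slc7a5, an amino acid carrier that also moves thyroid hormone, had 10.03 ± 0.65. The carriers Slc16a10 (7.86 ± 1.04, over the threshold in replicates 2 and 3) and Slco1c1 (6.07 ± 0.80) and the deiodinase Dio1 did not pass. Dio1, known from liver, had 8.62, 5.64, 4.18 and 6.18. Its highest level was in replicate 1, the sample with the highest summed liver marker intensity (45590), and its lowest was in replicate 3, where all 5 liver markers also lay over the threshold with a summed intensity of 11860. The part of those markers in it was not tested. At the median plus 3 median absolute deviations 1 of the 12 passed.

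Genes known to respond to these hormones in other tissues also answer to other signals, and with no hormone treatment their levels do not show receptor activity. All 18 glucocorticoid response genes were above background, beside 57.8% of all named genes. The count was 17 at the 99th percentile background and 14 at the strictest. Without probe sets that can read several transcripts it was 13 of 17 measured. Tsc22d3, a mediator of the anti-inflammatory response, had 12.85, 13.49, 12.41 and 12.97. Per1, a clock gene that glucocorticoid induces, had 9.07, 9.17, 9.12 and 10.92, with replicate 4 apart from the others. Mt1, a metallothionein, had 11.47, 10.51, 12.87 and 10.71. Fkbp5, of the chaperone list, belongs here as well. The median deviation of the list was 0.06, 0.32, -0.32 and 0.01 in replicates 1 to 4, and the median SD was 0.46.

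Of 8 mineralocorticoid response genes 7 were above background, 6 without replicate 3 or without replicate 4, 6 at the 99th percentile background and 5 at the strictest. The subunits of the epithelial sodium channel Scnn1a, Scnn1b and Scnn1g had 10.42 ± 0.26, 9.11 ± 0.96 and 9.09 ± 1.99. Scnn1g had 8.33, 6.79, 11.43 and 9.81 in replicates 1 to 4 (limma adjusted p = 0.0225) and lay under the threshold in replicate 2, and Scnn1b was also lowest there, at 7.79. Scnn1a did not follow them, with 10.06, 10.59, 10.63 and 10.40. Sgk1, whose promoter window with the palindrome is shown above, had 16.07, 15.84, 15.87 and 15.49. The gene that did not pass, named after its values were seen, was the kidney potassium channel Kcnj1, under the threshold in every sample.

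**Figure D5:**
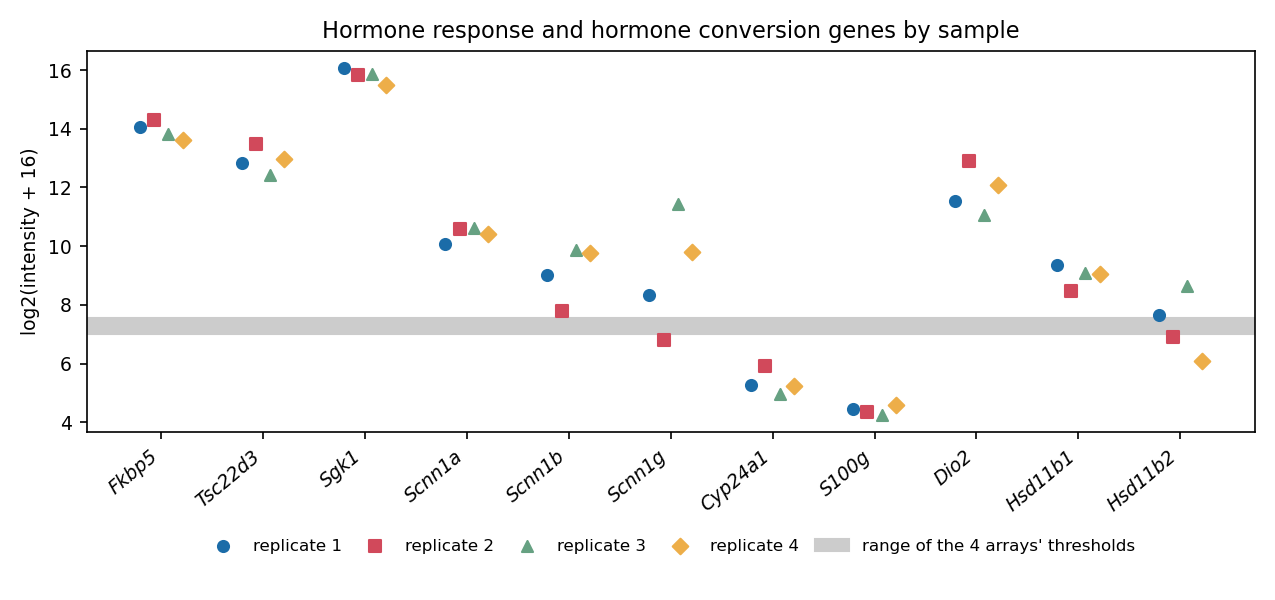
Level as log2(intensity + 16) of 11 hormone response and hormone conversion genes in each sample, with the range of the 4 arrays' thresholds (6.99 to 7.57) as a grey band. Within a gene, Scnn1g spreads from 6.79 to 11.43, Sgk1 stays between 15.49 and 16.07, and Cyp24a1 and S100g stay under the band.

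Of 5 vitamin D response genes 2 were above background. Cyp24a1, which degrades vitamin D and is its best known target in kidney, had 4.96 to 5.92, and S100g, a calcium-binding protein of gut and kidney, had 4.42 ± 0.15, both under the threshold in every sample. The genes that passed were the calcium channel Trpv6, at 7.82, 7.88, 8.93 and 8.70 (limma adjusted p = 0.0104), and the calcium pump Atp2b1, at 12.13 ± 0.43. At the 99th percentile background, as at the median plus 3 median absolute deviations, 1 of the 5 passed.

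Of 10 thyroid hormone response genes 5 were above background (50%), beside 57.8% of all named genes. Klf9, a transcription factor that thyroid hormone and glucocorticoid both induce, had 14.14 ± 0.38, and Hr, a corepressor, had 9.52 ± 0.35. Thrsp, a gene of fat synthesis, had 9.71 and 10.49 in replicates 1 and 2 and 7.04 and 6.50 in replicates 3 and 4, and did not pass (limma adjusted p = 0.178). Me1, malic enzyme, was highest in replicate 3 at 13.78, against 12.08 to 12.52, and Mbp, of myelin, had 12.51 ± 0.48. Me1 and Mbp had the largest SDs of those that passed.

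Of 11 genes that respond to oestrogen or progesterone, a list that counts Pgr itself, 7 were above background (63.6%). That lies near the 57.8% of all named genes. Greb1, an oestrogen-induced gene of breast and uterus, had 7.33, 5.98, 5.96 and 6.88 and did not pass (limma adjusted p = 1). Igf1, a growth factor that oestrogen induces in uterus, had 12.60, 11.50, 11.72 and 13.05. Ltf, the gene of the secreted iron-binding protein lactoferrin, had 8.43, 13.44, 13.07 and 12.16 (11.78 ± 2.30). Over all lists 86 of 116 measured genes, or 74.1%, were above background, against 57.8% of all named genes.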

How the data were processed

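The deposited values are intensities on a linear scale, 1 for each probe set on an array, and GCOS is named in the submitters' processing notes, with no version or algorithm given in the sources used here. Each array's mean was 1500 once 2% of probe sets had been trimmed at either end, a scaling that was kept. The 64 control probe sets were left out, which left 45037. Gene names came from GEO's platform annotation, for the 34945 probe sets with 1 symbol. Another 932 have several and 9160 none. The probe set of highest mean gives a gene's level, and 1 probe set past the test was enough to call the gene. Levels are log2(intensity + 16), which compresses differences among dim probe sets. The background rests on 84 probe sets for olfactory, vomeronasal and taste receptors. Tests ran over all probe sets in limma 3.58.1 (R 4.3.3), with trended robust variances and Benjamini-Hochberg adjustment, and were checked on simulated data. The spread test covered the 18414 probe sets above background, with 3 and 5.25 degrees of freedom. It cannot see spread that most probe sets share. The receptors and the lists were chosen with earlier results of these data known.

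Of 135 genes written in the lists around the receptors 116 had a probe set with a single symbol, and the rest are not analysed here. The rule named all receptors, all their relatives and partners, the first 3 measured genes of every other list with the 2 genes of largest SD above background, the first 2 of every marker list and the 2 genes most like each receptor. Alternatives tried were quantile normalization, pseudocounts of 1 and 64, a 99th percentile background, a stricter one of the median plus 3 median absolute deviations, no test, other handling of several probe sets and leaving out each replicate. Promoter sequences are those of RefSeq, build GRCm38.p6, used by gene symbol. No build is named for the arrays, so probe sets have no coordinates, and those of promoter windows and the overlap of annotated spans come from RefSeq.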

Additional observations from a re-analysis of the deposited data

Results flagged for a closer look

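Of the 88 genes named by the rule, 3 had 1 sample far from the other samples, by Dixon's ratio of the gap to the whole range. Chance flags about 1 in 20 groups of 4, and 0 of the 8 receptors were among the 3 flagged. Genes that the text names outside the rule were not checked. They include Pbsn (9.10, 9.42, 15.41 and 8.80 in replicates 1 to 4) and Ppargc1b (7.45, 7.15, 9.64 and 7.46), both highest in replicate 3. Per1, a gene of the glucocorticoid response list and of the clock, reached 10.92 in replicate 4, with 9.07 to 9.17 elsewhere. Myh4, a fast myosin of skeletal muscle, reached 16.39 in replicate 3 while the other arrays gave 4.14 to 4.52. Fabp4, a fatty acid binding protein of fat cells, reached 14.93 in replicate 3 while the other arrays gave 7.06 to 8.33.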

How the results depend on the processing

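The count of 5 receptor genes above background was 5 under all 12 alternatives, although without probe sets that can read several transcripts Esr2 had no probe set left and 7 genes were measured. The calls of single receptors kept their side of the threshold in 87 of 87 comparisons. The count over the lists was 70 to 88, against 86, while the share of all named genes above background moved as well. The lowest count came without probe sets that can read several transcripts, where 107 of the genes were measured and the share of all genes was 53.0%. The strictest background gave 71 and 39.5%, and no test gave 88 and 58.5%. No receptor passed the spread test under its 8 alternatives, where 7 probe sets of the array passed without replicate 2 and 4 without replicate 3. Levels moved by more than their SD in 2 of 61 comparisons. Esr2 had 6.55 with a pseudocount of 64, against 5.43, and Thra had 10.92 as the mean of its probe sets above background, against 11.33. The deviation of Nr3c1 in replicate 2 was 0.99 without replicate 3 and 1.31 without replicate 4, and that of Vdr was 0.91 and 1.07. No paired analysis was possible because the samples form 1 group. Signal over background limits Thrb, whose mean lay 0.05 under the thresholds.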

Other observations

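Some genes of hormone conversion and response, picked here for their values, were high in some samples. Hsd17b2, which inactivates oestrogen and testosterone, had 6.89, 4.46, 12.01 and 6.02 in replicates 1 to 4, and was not above background by the mean over samples (limma adjusted p = 0.949). Atp2a1, the calcium pump of fast skeletal muscle and a thyroid hormone response gene, had 7.56, 6.06, 11.97 and 7.52. Replicate 3 was the sample in which all 6 skeletal muscle markers lay over the threshold. The urothelium markers Upk3a (14.91) and Krt20 (11.69), Fabp4 (14.93) and Pbsn (15.41) were also highest in that sample. Whether the level of Hsd17b2 depends on what else that sample holds was not tested. Sult1e1, which inactivates oestrogen by sulfation, had 10.99 ± 0.79 (SD, n = 4), with replicates 1 and 2 highest at 11.66 and 11.59.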
